A study of Mus musculus with 93 samples.

Results

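The 25 Mature Neuron cells of a single-cell RNA sequencing series of mouse olfactory epithelium were ordered by a deposited Pseudotime score and split at its median, and the later cells were set against the earlier ones. The members were the Mature Neuron cells that the deposited receptor table lists, 25 of 85 cells in the series. The cell at the median was put with the early cells, which gave 12 late cells and 13 early cells. Pseudotime ran from 45.5 to 51.4 in late cells (median 49.2) and from 36.3 to 45.2 in early cells (median 43.2). The cells on either side of the split lay close together: D55 and D253 on the late side had scores of 45.51 and 46.68, and D97 and D260 on the early side 45.22 and 44.62.

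The study asked how odorant receptor genes come to be expressed as olfactory sensory neurons develop. Cells of C57BL/6 mice were picked by hand from dissociated epithelium, and their oligo(dT)-primed cDNA was amplified by PCR and sequenced. Late and early cells share strain, tissue, stage label and method, and the labels name no engineered allele and no treatment. The labels give no age or animal, nor how the stage or the Pseudotime of a cell was set.

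A score of this kind is usually computed from the transcriptomes it orders, so each gene may have helped to place the cells. Each library is 1 cell, and cells without a named animal are not replicates. For both reasons late and early cells were not compared by a test and no p-value is given, each SD is a spread over cells, and all differences are descriptions of these 25 cells. Differences are those of mean log2(FPKM + 1), late minus early, so a positive value means higher in late cells. FPKM is a read count scaled to transcript length and library size, and a gene was called detected at an FPKM of at least 1.

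A mature olfactory sensory neuron lies in the epithelium with a dendrite that ends in cilia and an axon that runs to the olfactory bulb. In its cilia an odorant receptor activates the G protein subunit encoded by Gnal, which activates the adenylyl cyclase encoded by Adcy3. Cyclic AMP opens a channel built from the products of Cnga2, Cnga4 and Cngb1, and the calcium that enters opens the chloride channel encoded by Ano2. Receptor proteins are made in the endoplasmic reticulum, where unfolded protein signals take part in fixing the choice of 1 receptor per neuron, and the products of Rtp1 and Rtp2 help them to the surface.

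The stage label fitted Omp, Gap43 and Gng8 in all 25 cells, while other markers of both stages varied. Omp, the olfactory marker protein gene of mature neurons, reached at least 2917 FPKM in late cells and at least 1090 FPKM in early cells. Gap43 and Gng8, markers of immature neurons, stayed under an FPKM of 1 in all 12 late and all 13 early cells, while Gap43 was detected in 8 of 13 Late Immature Neuron cells. Stmn1, another marker of immature neurons, was detected in 9 of 12 late and 8 of 13 early cells, and Tubb3 in 9 of 12 late and all 13 early cells. Of the mature markers, Cnga2 was detected in 11 of 12 late and all 13 early cells. Ano2 was detected in 11 of 12 late and 12 of 13 early cells.

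The libraries themselves differed along the score. Late cells held 3361 detected genes at the median (2648 to 3813) and early cells 3886 (3258 to 4739). Genes that reached 10 FPKM numbered 1913 (1556 to 2638) in late cells and 2551 (2141 to 3183) in early cells. Depth, read off the steps between low values, was 3.0 fragments per FPKM and kb at the median in late cells (0.556 to 8.88) and 4.37 in early cells (2.49 to 7.50). The late cells D245, D240, D213 and D223 lay lowest at 1.40, 1.14, 0.784 and 0.556, and some of the results that changed without them carry a second value. D29, the deepest library of all at 8.88, held 1738 genes that reached 10 FPKM, fewer than any early cell. Numbers in cell names fall into ranges that the labels do not explain and that are split unevenly: 8 late and 8 early cells come from D213 to D274, 4 late cells and 1 early cell from D29 to D97, and 0 late and 4 early cells from D316 to D434. Values within D213 to D274 are therefore given beside many of the main ones. What depth and name range contribute to the differences was not tested.

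**Figure D1:**
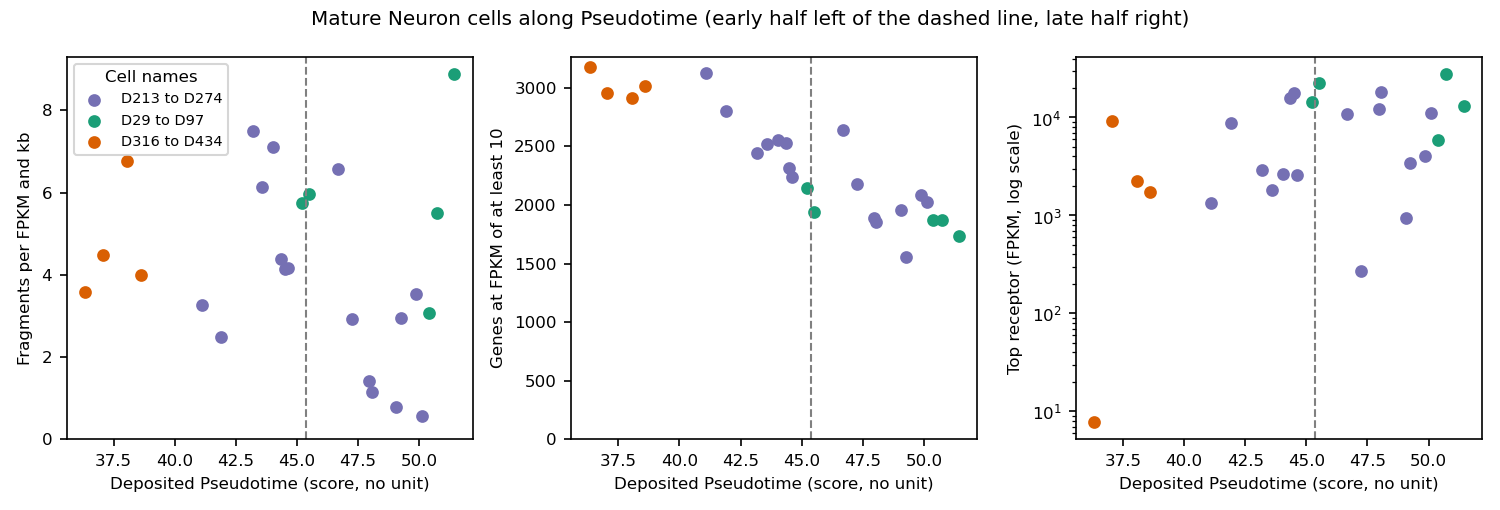
Each point is 1 Mature Neuron cell, placed by its deposited Pseudotime and coloured by the number range of its name, with late cells right of the dashed line. The panels give depth in fragments per FPKM and kb, the count of genes that reached 10 FPKM, and the FPKM of the top receptor (among genes with Olfr names) on a log axis. Depth was lowest in 4 late cells, the count of genes ran from 1556 to 2638 in late and from 2141 to 3183 in early cells, and top receptors ran from 273 to 27555 FPKM in late and from 7.84 to 17840 FPKM in early cells.

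Odorant receptor RNA was dominated by a single gene in most late and most early cells. The top receptor, taken among genes with Olfr names, stood at a median of 10945 FPKM in late cells (273 to 27555) and 2673 FPKM in early cells (7.84 to 17840). Within D213 to D274 the medians were 7378 FPKM in late and 2799 FPKM in early cells, so the gap was smaller there, and the ranges overlapped in both views. The top receptor held 98.8% of all Olfr FPKM at the median in late cells and 98.5% in early cells. Detected Olfr genes numbered 10.1 ± 3.29 in late cells (SD, n = 12) and 9.23 ± 3.0 in early cells (SD, n = 13). Each cell had a different top receptor. For 2 early cells the deposited receptor table gave lower values than the gene table used here. They were 372 against 8831 FPKM for Olfr728 in D243, and 445 against 1355 FPKM for Olfr1281 in D251.

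The highest top receptors were Olfr222 at 27555 FPKM in the late cell D95 (chr11:59570699-59571813, mm10) and Olfr195 at 22494 FPKM in the late cell D55 (chr16:59148829-59149823). Among early cells the highest were Olfr987 at 17840 FPKM in D255 and Olfr1033 at 15855 FPKM in D274. A pair of cells stood apart at the low end. The late cell D232 had Olfr398 at 273 FPKM and Olfr147 at 230 FPKM, so that its top receptor held 41.4% of the Olfr sum. The early cell D329, the lowest in Pseudotime, had no Olfr gene above 7.84 FPKM (Olfr1384). The deposited receptor table lists Gm4461 for it at 123 FPKM, a gene outside the Olfr names counted here. Second receptors were low, with medians of 46.2 FPKM in late and 41.6 FPKM in early cells. In 6 of 12 late cells and 6 of 13 early cells the second receptor was the top receptor of another Mature Neuron cell in the same name range. D55 and D95 mirrored each other in this way: Olfr222 stood at 44.9 FPKM in D55 and Olfr195 at 51.4 FPKM in D95.

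Over all 25 cells and in the deposited scaling, genes of odorant transduction were mostly higher in late cells, though by small amounts. Of 16 genes on this list all were measured, meaning detected in at least 50% of late or of early cells, and 11 were above 0 and 5 below. Across all 3412 measured genes 38.5% were above 0 and the median difference was -0.37. That median became -0.51 when each library was scaled to the same sum over all genes and -0.73 when scaled over genes outside the mitochondrial genome and the Olfr family, so medians of lists are given relative to it. The transduction list stood 0.73 above the median of all genes (0.55 and 0.67 under those scalings) and 0.35 above it within D213 to D274. Its own median was 0.36 over all cells and -0.02 within D213 to D274, so a place above the median of all genes need not mean a rise.

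Omp had a median of 12001 FPKM in late cells (2917 to 25662) and 5708 FPKM in early cells (1090 to 35132). The difference was 0.90 overall and 0.58 within D213 to D274. The highest Omp value of all belonged to the early cell D97, and all 5 cells of D29 to D97 held at least 19922 FPKM, on both sides of the split. Adcy3 had a median of 212 FPKM in late cells (5.15 to 430) and 62.9 FPKM in early cells (11.4 to 207), a difference of 1.36, or 0.70 within D213 to D274. Stoml3, which encodes a membrane protein of olfactory cilia, had a median of 5638 FPKM in late cells (2392 to 26690) and 3045 FPKM in early cells (978 to 17166), a difference of 1.17. Both groups overlapped for each of these genes. Slc12a2, the chloride importer that loads the neuron with chloride, differed by 1.43 overall and by 0.31 within D213 to D274. Pde4a, a phosphodiesterase that breaks down cyclic AMP, differed by 1.15 overall and by -0.09 within that range.

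The small differences of the cyclic nucleotide channel genes changed sign with the cells used. Cnga2, Cnga4 and Cngb1 differed by 0.20, 0.31 and 0.19, and by -0.63, -0.73 and -0.68 within D213 to D274. Without the 4 late cells of low depth the values were 1.08, 0.06 and 1.17. Gnal and Gng13, which encode G protein subunits of the pathway, differed by 0.42 and -0.08, and Gnal by 0.04 within D213 to D274. The sign of Gnal turned when scaled over genes outside the mitochondrial genome and the Olfr family (-0.01), and that of Gng13 without the 4 late cells of low depth (0.15). The calcium exchanger gene Slc24a4, whose product ends the response by removing calcium, went the other way from most of the list. It was detected in 1 of 12 late cells and 8 of 13 early cells, with a difference of -2.17 and of -1.65 within D213 to D274. S100a5, another marker of mature neurons, ran from 46.0 to 30188 FPKM in late cells and from 190 to 18309 FPKM in early cells. Its difference was -0.49, and 0.30 within D213 to D274.

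**Figure D2:**
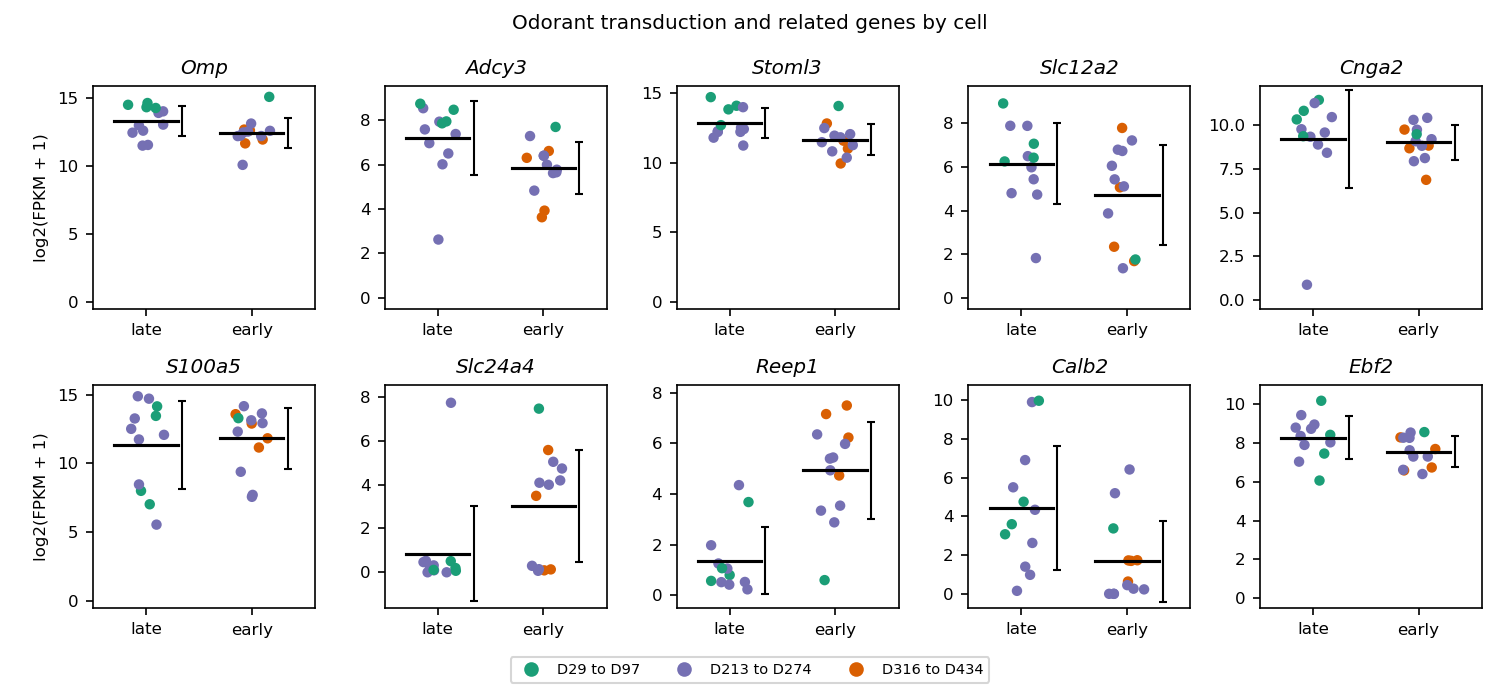
Each point is 1 cell, late cells left and early cells right, coloured by name range, with the mean as a line and 1 SD over cells as a bar; the vertical axis is log2(FPKM + 1). Adcy3, Stoml3 and Slc12a2 have higher means in late cells by 1.36, 1.17 and 1.43, Slc24a4 and Reep1 have lower ones by more than 2 units, and the points of late and early cells overlap in every panel.

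Genes that help receptors to the cell surface split apart. Reep1, which shapes endoplasmic reticulum membrane and has been tied to receptor export, had a median of 0.908 FPKM in late cells (0.176 to 19.4) and 41.1 FPKM in early cells (0.514 to 179.3). It was detected in 6 of 12 late and 12 of 13 early cells, with a difference of -3.56 and of -3.44 within D213 to D274. Rtp1 and Rtp2 were detected in all 25 cells and differed by 0.12 and 0.52, and by -0.42 and 0.67 within D213 to D274. Of the 8 genes on this list 5 were measured, 4 above 0, at 0.64 above the median of all genes (1.04 within D213 to D274). Among transcription factors tied to receptor choice, 11 of 21 were measured, 7 above 0 and 4 below, and the list stood 0.70 above the median of all genes (0.46 within D213 to D274). Without D95 that value was 0.43, and without D274 it was 0.45. Ebf2, of the early B-cell factor family that binds receptor promoters, had a median of 336.5 FPKM in late cells (66.2 to 1165) and 197.3 FPKM in early cells (83.9 to 379), a difference of 0.73. Lhx2, a homeodomain factor that receptor genes need, differed by 0.38 and by 0.61 within D213 to D274, but by -0.49 without the 4 late cells of low depth and by -0.01 when scaled over genes outside the mitochondrial genome and the Olfr family.

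Several genes of immature neurons were lower in late cells, while their list as a whole lay close to the median of all genes. Tubb3, a neuronal tubulin, had a median of 3.79 FPKM in late cells (0 to 722) and 177.5 FPKM in early cells (35.6 to 761), and averaged 8.12 log2 units in Late Immature Neuron cells. The difference was -3.43, and -2.21 within D213 to D274. All 13 early cells had at least 35.6 FPKM, while late cells were spread from 0 to the early range. Stmn3, a regulator of microtubules, differed by -2.53, and Dcx, which binds microtubules in migrating neurons, by -1.22. Crmp1, a mediator of axon guidance signals, differed by 1.39 the other way, and by 3.59 within D213 to D274. Of 12 measured members of 19, 6 were above 0 and 6 below, and the list stood 0.02 above the median of all genes and 0.45 above it within D213 to D274. Its own median was -0.35 over all cells and 0.08 within D213 to D274. Without the 4 late cells of low depth the list stood 0.83 below the median of all genes. Leaving out D232, D213, D245, D240 or D253 alone put it 0.69, 0.63, 0.62, 0.59 or 0.55 below. The highest value with a single cell left out was 0.26 above, without D55. Among axon guidance genes 10 of 22 were measured, 4 above 0, with Ncam1 at -1.66 and Plxna1 at -1.85, and among synapse genes 15 of 24, 6 above 0, with Stx1a at -2.02 and Syp at 1.16. Within D213 to D274 Plxna1 stood at -1.17 and Syp at 1.88. Across all measured genes 38.5% were above 0.

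Over all genes, lower values outnumbered higher ones in late cells. Of 3412 measured genes, 68 were higher by at least 2 log2 units (1.99%) and 310 were lower by that much (9.09%). Higher genes made up 17.99% of those past that size, 5.78% after scaling over all genes, 8.87% after scaling over genes outside the mitochondrial genome and the Olfr family, and 33.4% without the 4 late cells of low depth. Within D213 to D274, 4.8% of 3834 measured genes were higher and 13.2% lower, and 41 and 198 of the genes counted over all cells were among them. A gene could enter through the cells in which it was high, so these counts show the sizes seen and not how many genes differ. For scale, the early cells D251 and D243 were each sequenced again: 33.8% and 31.9% of measured genes were detected in only 1 of the 2 libraries of the cell, and 45.4% and 46.0% differed by at least 2 log2 units. Genes counted as lower had a median level of 1.59 log2 units in late, 4.27 in early and 3.55 in Late Immature Neuron cells. Genes counted as higher had 4.05 in late, 1.58 in early and 2.99 in Late Immature Neuron cells. Both sets were picked for late and early cells lying apart, and over all measured genes the levels were 2.92 in late, 3.38 in early and 3.59 in Late Immature Neuron cells.

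The genes lowest in late cells included parts of the machinery that brings new proteins into the endoplasmic reticulum. Sec61b, a subunit of the channel through which they pass, had the largest negative difference among annotated genes of the kind named here. Its median was 0.391 FPKM in late cells (0 to 7.59) and 135 FPKM in early cells (0.561 to 448). It was detected in 5 of 12 late and 12 of 13 early cells, and the difference was -4.50, or -5.09 within D213 to D274. Spcs1, a subunit of the enzyme that cuts signal peptides, had a median of 8.82 FPKM in late cells (1.73 to 453) and 351 FPKM in early cells (3.04 to 1501), a difference of -4.13. Srp14, part of the particle that recognises signal peptides, differed by -3.41 (-5.62 within D213 to D274), and Emc7, of a complex that inserts membrane proteins, by -3.4.

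A list of 32 genes for this entry step was drawn up after those values were seen, so its count is no independent support. Of 24 measured, 4 were above 0 and 20 below, with 1 higher and 9 lower by at least 2 log2 units. Among all measured genes 38.5% were above 0, 1.99% higher and 9.09% lower by that much. The list stood 1.08 below the median of all genes, and 1.01 below it within D213 to D274. It stayed below under every setting computed, from 0.67 below without the early cell D255 to 1.55 below with a pseudocount of 0.1. Sec11a and Sec11c encode alternative catalytic subunits of signal peptidase, and they differed in opposite directions, by -2.67 and 2.03. Sec11c was detected in 9 of 12 late and 4 of 13 early cells, though within D213 to D274 the differences of Sec11a and Sec11c were -1.33 and 0.35.

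Genes of traffic beyond the endoplasmic reticulum, also listed after the values were seen, lay on both sides. Of 50 genes 30 were measured, with 5 higher and 4 lower by at least 2 log2 units and a median 0.02 above that of all genes. By that much, 1.99% of all measured genes were higher and 9.09% lower. Preb encodes the exchange factor that loads Sar1 proteins with GTP at exit sites. It was detected in 2 of 12 late cells and 9 of 13 early cells, with a difference of -3.91. Sar1a itself was detected in 11 of 12 late cells and 5 of 13 early cells, with a difference of 2.59. Tmed9, a cargo receptor of the early secretory pathway, differed by 3.23, and Rab7, the GTPase of late endosomes, by 3.21. Rab7 had a median of 422 FPKM in late cells (1.55 to 935) and 8.497 FPKM in early cells (0.370 to 492).

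**Figure D3:**
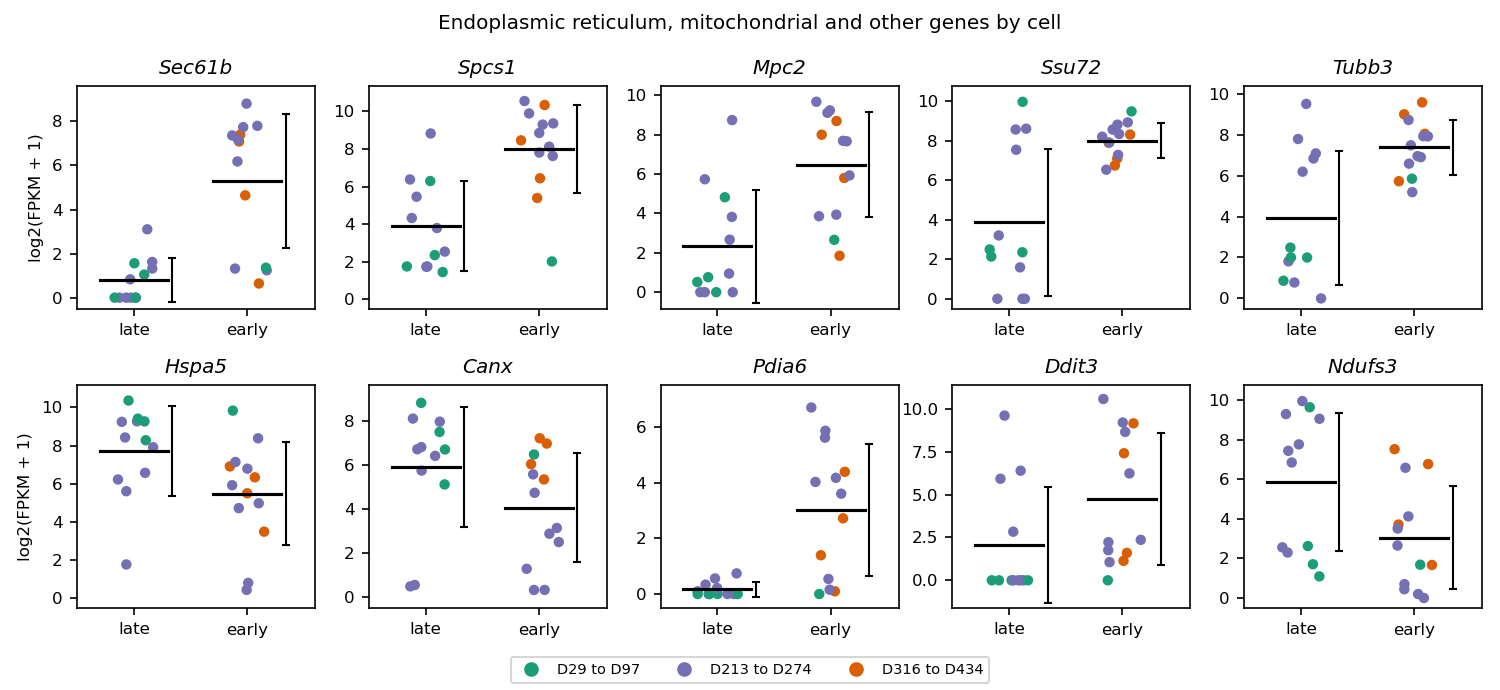
Each point is 1 cell, late cells left and early cells right, coloured by name range, with the mean as a line and 1 SD over cells as a bar; the vertical axis is log2(FPKM + 1). Sec61b, Spcs1, Mpc2, Ssu72 and Tubb3 are high in most early cells and spread down to 0 or near it in late cells, Pdia6 stays under 1 FPKM in all 12 late cells, and Hspa5, Canx and Ndufs3 have higher means in late cells.

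Chaperones and signals of the unfolded protein response did not move as a unit. Many of these genes carry the endoplasmic reticulum stress response element, the letters CCAAT and CCACG with any 9 bases between them, which the factors ATF6 and XBP1 bind together with NF-Y. A search of both strands found it in 39 of 32851 RefSeq promoters (0.119%) and in 7 of 20 promoters of the 19 genes of this list that could be matched among its 20 members. The promoters of Hspa5, Canx and Pdia6 are printed because these 3 genes share the element and had the largest differences among its carriers. They are given 5′ to 3′ on the strand of the gene, from 250 bases before to 50 after the annotated start in RefSeq on GRCm38.p6, with the element in capitals. They lie at chr2:34771840-34772139 on the plus strand for Hspa5, chr11:50325624-50325923 on the minus strand for Canx and chr12:17266339-17266638 on the plus strand for Pdia6.
Hspa5: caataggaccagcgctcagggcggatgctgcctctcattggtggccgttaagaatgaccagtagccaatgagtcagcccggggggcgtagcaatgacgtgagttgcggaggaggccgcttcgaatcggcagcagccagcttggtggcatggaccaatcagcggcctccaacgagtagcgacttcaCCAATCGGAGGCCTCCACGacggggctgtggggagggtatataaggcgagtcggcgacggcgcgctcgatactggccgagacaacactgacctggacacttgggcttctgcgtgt
Canx: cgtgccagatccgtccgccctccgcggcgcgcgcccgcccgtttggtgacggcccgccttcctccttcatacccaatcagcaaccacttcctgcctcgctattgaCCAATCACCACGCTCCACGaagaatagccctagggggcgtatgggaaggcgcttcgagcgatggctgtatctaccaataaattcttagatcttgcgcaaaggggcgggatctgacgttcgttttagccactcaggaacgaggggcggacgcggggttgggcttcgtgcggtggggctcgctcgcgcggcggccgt
Pdia6: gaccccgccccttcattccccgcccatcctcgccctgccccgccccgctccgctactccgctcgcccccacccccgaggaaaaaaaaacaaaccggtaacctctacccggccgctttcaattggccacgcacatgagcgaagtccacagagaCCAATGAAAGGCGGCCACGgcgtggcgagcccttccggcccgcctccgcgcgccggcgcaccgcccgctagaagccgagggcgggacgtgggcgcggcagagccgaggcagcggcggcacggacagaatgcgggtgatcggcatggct
A match of letters does not show that a factor was bound in these cells.

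Hspa5, which encodes the chaperone BiP, had a median of 326 FPKM in late cells (2.42 to 1310) and 59.7 FPKM in early cells (0.360 to 908). The difference was 2.21, and 1.98 within D213 to D274. Canx, which encodes the chaperone calnexin, had a median of 103 FPKM in late cells (0.394 to 450) and 25.6 FPKM in early cells (0.244 to 147), a difference of 1.85. Pdia6, which encodes a disulfide isomerase, went the other way. It was detected in 0 of 12 late cells, 4 of which were shallow, and in 9 of 13 early cells, where its median was 11.2 FPKM. It was thus measured through early cells alone. The difference was -2.86, and -3.59 within D213 to D274. Genes that carry the same element thus differed in both directions, though Hspa5, Canx and Pdia6 were chosen for the size of their differences. Of the other carriers, Hsp90b1 stood at -0.91 and Calr at -0.22, and the rest were not measured.

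The stress signalling genes Ddit3 and Atf4 were lower in late cells. Ddit3, a transcription factor made under prolonged stress, was detected in 4 of 12 late and 12 of 13 early cells, with a difference of -2.66. Atf4, which raises Ddit3 in that response, had a median of 57.3 FPKM in late cells (1.8 to 1224) and 214 FPKM in early cells (37.4 to 572), a difference of -1.77. Atf5, whose translation the same signal raises in olfactory neurons, differed by 0.42, by 0.86 within D213 to D274, and by -0.01 when scaled over genes outside the mitochondrial genome and the Olfr family. Of 13 measured genes of the list, 6 were above 0 and 7 below, and the list stood 0.15 above the median of all genes (0.30 within D213 to D274). That small value changed sign when single cells were left out, for example to -0.15 without D265.

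Genes of the mitochondrial genome and nuclear genes of oxidative phosphorylation are given apart. Of 18 measured genes of the mitochondrial genome, 15 were above 0, and the list stood 0.91 above the median of all genes and 0.40 above it within D213 to D274. mt-Atp6, a subunit of ATP synthase, had a median of 69373 FPKM in late cells and 33996 FPKM in early cells, a difference of 0.89, or 0.41 within D213 to D274. The share of FPKM from the mitochondrial genome was much alike, at 67.7% in late cells (20.6 to 81.1) and 67.0% in early cells (24.4 to 90.1). Of 75 measured nuclear genes of oxidative phosphorylation, 19 were above 0 and 56 below, with 1 higher and 15 lower by at least 2 log2 units. Over all measured genes 38.5% were above 0, 1.99% higher and 9.09% lower by that much. The list stood 0.34 below the median of all genes, but 0.12 above it within D213 to D274, so its direction did not hold there. Leaving out single cells put it from 0.05 (without D55) to 0.44 below that median. Ndufb9, Cox6b1 and Uqcr11 differed by -3.39, -3.12 and -2.93, and by -2.27, -1.25 and -3.08 within D213 to D274. Ndufs3, a core subunit of complex I, differed by 2.81 in the other direction and by 4.62 within D213 to D274.

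The carrier that brings pyruvate into mitochondria is built from the products of Mpc1 and Mpc2, and both genes were lower in late cells. Mpc2 had a median of 0.810 FPKM in late cells (0 to 426) and 201.6 FPKM in early cells (2.61 to 813), a difference of -4.13. Mpc1 had a median of 5.55 FPKM in late cells (1.68 to 2120) and 454 FPKM in early cells (114 to 1496), a difference of -3.73, or -2.15 within D213 to D274. Early cells were all high for Mpc1, while the late cells ranged from near the detection level to above the highest early cell. Mrps5, a protein of the mitochondrial ribosome, was detected in 0 of 12 late and 8 of 13 early cells. In a list of mitochondrial ribosome, import and carrier genes drawn up after these values were seen, 54 of 99 were measured. Of those, 19 were above 0 and 35 below, with 2 higher and 10 lower by at least 2 log2 units, at 0.16 below the median of all genes. The shares over all measured genes were 38.5% above 0, 1.99% higher and 9.09% lower by that much. Glycolytic genes lay mostly on the other side, with 7 of 10 measured above 0 and 3 below. Their list stood 0.69 above the median of all genes, 0.46 above it without D260 and 1.048 above it without D255. Tpi1 and Pgam1 differed by 1.76 and 1.27, and by 2.31 and 1.17 within D213 to D274. Pkm went the other way, at -1.003 and at -1.54 within D213 to D274.

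Other genes at the low end had varied roles. Ssu72, a phosphatase of RNA polymerase II, had a median of 4.37 FPKM in late cells (0 to 998) and 293 FPKM in early cells (91.5 to 713), a difference of -4.13. Late cells spread from 0 to above the highest early cell, and the gene was detected in 9 of 12 late and all 13 early cells. Eid1, which inhibits histone acetylation by EP300, differed by -4.45, and Tgfbr1, a receptor of TGF-beta signals, by -4.06. Usp47, a deubiquitinating enzyme, was detected in 0 of 12 late cells and 10 of 13 early cells, with a difference of -3.81. Rdh14, a retinol dehydrogenase, differed by -3.76 and Hist2h3c1 by -3.80. Hist2h3c1 has near-identical copies, so its value is uncertain. Of 18 proteasome genes 4 were above 0 and 14 below, beside 38.5% above 0 among all measured genes, with Psma6 at -2.96 and Psma7 at -2.55. That list stood 0.26 below the median of all genes, a value that reached 0.02 above it without D254.

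At the high end, Calb2, which encodes the calcium buffer calretinin, was detected in 10 of 12 late and 6 of 13 early cells. Its median was 15.2 FPKM in late cells (0.113 to 1007) and 0.553 FPKM in early cells (0 to 84.9), a difference of 2.76. Camk1, a kinase activated by calcium and calmodulin, differed by 2.71, but by 0.93 within D213 to D274. Clk4, a kinase of splicing factors, had the largest positive difference of the genes named by rule, 3.402, and was detected in 8 of 12 late and 4 of 13 early cells. Tmem261, Banf1, which binds DNA at the nuclear envelope, and Bag1, a partner of Hsp70 chaperones, differed by 3.26, 3.07 and 2.84. Without the 4 late cells of low depth, the differences of Bag1 and Tmed9 were 1.67 and 1.51 times as large and that of Hspd1, a mitochondrial chaperone at -2.28, 0.539 times as large. Pcsk7, a protease that activates secreted precursors, differed by 2.81. Calb2, Camk1, Clk4, Tmem261, Banf1, Bag1 and Pcsk7 were each detected in at most 7 of 13 early cells and in at least 7 of 12 late cells. They were picked for the size of their differences, so these counts follow in part from that choice. Of the others among the 10 highest, Tmed9 was detected in 4, Rab7 in 11 and Ndufs3 in 9 of 13 early cells.

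**Figure D4:**
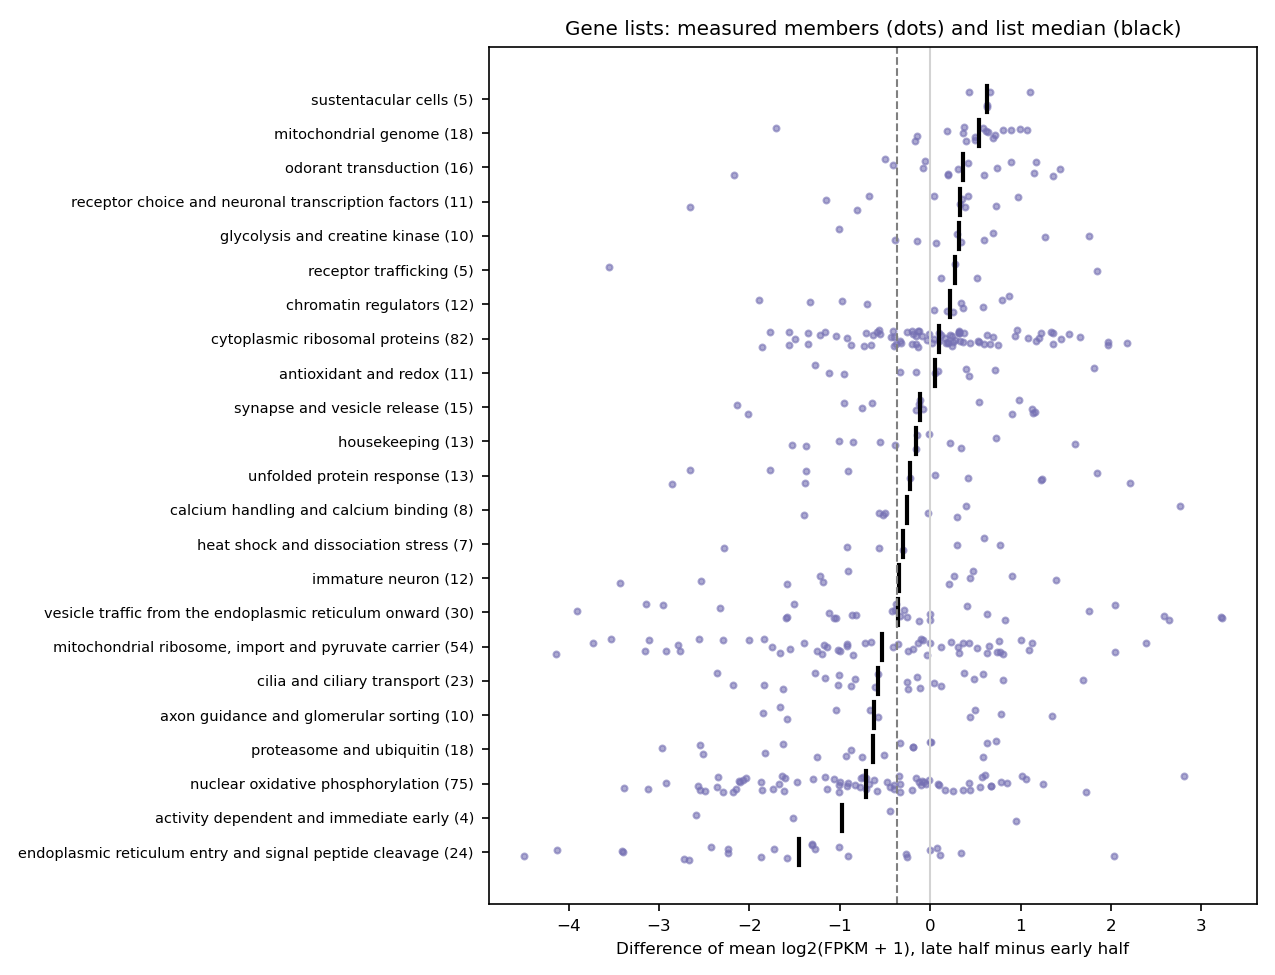
Each dot is a measured gene of a list, placed by its difference of mean log2(FPKM + 1), late minus early, and the black bar is the median of the list; numbers in brackets are measured genes, the dashed line is the median of all measured genes (-0.37) and the pale line is 0. The list for entry into the endoplasmic reticulum lies lowest, at 1.08 below the dashed line, and most lists straddle it.

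Of 82 measured ribosomal protein genes of the cytoplasm 44 were above 0 and 38 below, where 38.5% of all measured genes were above 0. The list stood 0.47 above the median of all genes. Rpl14 differed by 2.18 and Rpl8 by 1.97. Of 23 measured cilia genes 7 were above 0 and 16 below, beside 38.5% above 0 among all measured genes. The list stood 0.20 below the median of all genes and 0.23 above it without D261, and its value relative to that median was -0.0049 within D213 to D274. Kif3a, a motor of ciliary transport, was detected in 3 of 12 late and 11 of 13 early cells, with a difference of -2.36. Ift74, a part of the ciliary transport complex, differed by 1.69 the other way.

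Markers of other cells in the epithelium were checked beside these values. The summed FPKM of 15 sustentacular cell genes had a median of 506 in late cells (8.68 to 2755) and 318.4 in early cells (0.776 to 2298). All 5 measured genes of that list were above 0, at 1.0 above the median of all genes, and at 0.55 above it within D213 to D274. Cbr2, its most abundant gene, differed by 0.63, but by -1.76 within D213 to D274, and passed 1000 FPKM in D81 and D95 among late cells and in D251 and D97 among early cells. In all, 12 of 15 genes of the list were detected in at least 1 cell. All 7 genes of horizontal basal cells were detected in 0 cells. Of the lists for glia, for blood and immune cells, and for stromal and endothelial cells, 5 of 9, 6 of 15 and 3 of 10 genes were detected in any cell and none was measured, and of the 12 gland and microvillous genes only Coch was, at 0.95 (0.31 within D213 to D274). The part of sustentacular RNA in the differences was not tested, and results without the 4 cells high in Cbr2 are given at the end.

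The spread between cells was itself wider late. The median SD over cells was 2.86 log2 units in late and 2.56 in early cells, and 2298 of 3412 genes had the larger SD in late cells. Genes detected in every cell numbered 449 in late and 569 in early cells. Those detected in all 25 cells had a median difference of 0.09. The late cells include the libraries of lowest depth, and these values were not recomputed without them or within D213 to D274. What depth contributes to the spread was not tested.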

How the data were processed

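The gene table that the authors deposited gives FPKM values of 93 libraries for 32975 entries. Per the submitters' processing notes, the tools were Cufflinks 2.2.1 and TopHat2 2.0.14, with cutadapt 1.2.1, CASAVA 1.8.2 and Trim Galore, and the build was mm10. How strand and scaling were handled is not given in the sources used. Pseudotime is a score in the authors' deposited receptor table, which also gives FPKM of receptors. Gene symbols and positions (other values) come from the deposited annotation. Without stated strand, overlapping genes cannot be told apart.

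Computed here with Python 3.11.15, numpy 2.4.6, pandas 2.3.3 and scipy 1.17.1: repeat libraries were left out, 172 symbols with more than 1 entry took the highest FPKM, and values were log2(FPKM + 1), which understates changes of low genes. Genes measured were detected (FPKM of at least 1) in at least 50% of late or of early cells; 2 log2 units was the fold used for counts. Depth came from the spacing of the low FPKM of 2274 genes with 1 exon (800 to 4000 bp long, tolerance 5%, at least 5 genes). No interval over cells is given, and reads that are PCR copies of a molecule are not independent. Dixon's criterion served only to pick out single cells.

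Members, the 29 lists and the rules were chosen with earlier results of these data known, and 3 further lists after the values were seen. Named genes were the 10 highest and 10 lowest annotated genes (leaving out ribosomal protein, mitochondrial, Olfr, Gm and Rik entries), up to 4 per list, a panel of 22 genes and top receptors. Others (Srp14, Emc7, Sec11a, Sec11c, Sar1a, Mpc1, Mrps5, Dcx, Atf4, Pde4a, Olfr147, Calr, Hsp90b1) were chosen after their values were seen. Planted differences of 1, 2, 3 and -2 were recovered in simulated data for this comparison at 1.26, 1.93, 3.19 and -1.90 (50 genes each). There 7450 genes were measured, beside 3412 in the deposited data. Recovery of differences in the deposited libraries was not tested. Some list members are not reported here.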

Additional observations from a re-analysis of the deposited data

Results flagged for a closer look

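Among 50 sets of 8 values from the cells D213 to D274 (receptor measures and panel genes, late and early cells apart), 10 held a cell far from the rest by Dixon's criterion at 95%, where chance picks out about 1 in 20. Most concern transduction genes and the top receptor. All ranks and ranges of other cells given here cover only the 8 late or the 8 early cells of D213 to D274.

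Among late cells D213 to D274, the top receptor of D232 held 41.4% of the Olfr sum, against 95.2 to 99.6% in the other 7. D265 was the highest of these 8 for Gng13 at 12.61 log2 units (others 9.11 to 10.34) and for Stoml3 at 13.98 (others 11.22 to 12.51). D213, a library of low depth, was the lowest of them for Adcy3 at 2.62 (others 6.02 to 8.55) and for Cnga2 at 0.87 (others 8.43 to 11.28).

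Among early cells D213 to D274, D243 held 6 Olfr genes that reached 10 FPKM (others 1 to 3). In D259 the top receptor Olfr1055 held 77.8% of the Olfr sum (others 92.4 to 99.6%), beside its second receptor Olfr1054 at 496 FPKM, and D259 was the lowest of these 8 for Omp at 10.09 (others 12.21 to 13.14). D255 was the lowest of them for Rtp1 at 5.44 (others 8.26 to 9.47) and D262 for Atf5 at 6.61 (others 8.06 to 9.36).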

How the results depend on the processing

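The shares of measured genes past 2 log2 units (1.99% higher, 9.09% lower) moved with many settings, while lower exceeded higher under all of those computed. A pseudocount of 0.1 gave 5.22% higher and 20.05% lower, and 10 gave 0.147% and 0.791%. No filter on detection gave 0.726% and 3.07%, since genes near 0 then enter the total, and the 8 highest against the 8 lowest cells 3.51% and 18.4%. Scaling over all genes gave 0.469% higher, scaling over genes outside the mitochondrial genome and the Olfr family 15.4% lower, and the cells D213 to D274 alone 4.8% higher. Leaving out the 4 late cells of low depth (added after the data were seen) gave 4.97% higher and an immature neuron list at -0.83. The same setting changed the sign of 5 of 120 named genes and of 3 of 23 lists relative to the median of all genes. Not all of these are given above. Leaving out single cells gave 1.84 to 2.57% higher and 8.90 to 10.7% lower. Without the 4 cells high in Cbr2 (also added later), 2.82% were higher and 11.1% lower, with the transduction list at 0.94 and the endoplasmic reticulum entry list at -0.86. The 40 named genes with differences of at least 2 units kept their sign under all of these settings. Many of them were named for that size, and the settings reuse the same cells, so a kept sign is no independent support. Smaller differences changed sign in 13 of 120 named genes within D213 to D274. List medians near that of all genes changed sign when single cells were left out, in 11 of 23 lists. No paired analysis was possible because the cells carry no replicate number shared between late and early cells. The causes were not tested. Depth limits low genes: in the shallowest library an FPKM of 1 in 1 kb stood for 0.556 fragments, so absence there is not shown.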

Other observations

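Of 4 measured activity-dependent genes of 20, 1 was above 0 and 3 below, at 0.61 below the median of all genes; that value was -0.55 within D213 to D274, -0.39 without D243 and -0.40 without D255. Dusp1, a phosphatase induced by activity, was detected in 2 of 12 late and 9 of 13 early cells, with a difference of -2.59, or -1.70 within D213 to D274. Fos was detected in 1 of 12 late and 2 of 13 early cells, and Egr1 in none of either.

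Of 7 measured heat shock genes 3 were above 0, of 11 antioxidant genes 6, of 8 calcium-binding genes 3, of 12 chromatin genes 8 and of 13 housekeeping genes 4. The share above 0 among all measured genes was 38.5%. Relative to the median of all genes these lists stood at 0.07, 0.43, 0.11, 0.59 and 0.21, and within D213 to D274 at -0.53, 1.15, 0.50, 0.26 and 0.14. Gstm1, a glutathione transferase, differed by 1.81 and the histone gene H2afz by -1.89. Of the cell cycle list 2 of 20 genes were measured, Cdk4 at -1.89 and Cks2 at 0.78, and at -0.13 and -0.47 within D213 to D274. The zone markers Nqo1 (dorsal) and Ncam2 (ventral) were detected in 4 of 12 and 4 of 12 late cells, and in 4 of 13 and 6 of 13 early cells. Of 14 genes of other chemosensory cells, Gnao1 and Car2 were measured, at -1.33 and -1.20, with Car2 at -0.77 within D213 to D274.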
